A study of Mus musculus with 9 samples.

Results

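The ABC transporter genes of the mouse colon were followed across a berberine group, a high-fat diet group and a chow group. A gene was taken as a member when its symbol consists of Abc, a subfamily letter from a to g, a number and at most 1 further letter. The rule found 50 of the 55401 genes in the deposited table, and no pseudogene had to be left out. Subfamily A holds 16 of them, B holds 10, C holds 10, D holds 4, E holds 1, F holds 3 and G holds 6. Symbols alone decided membership, and measured levels did not enter the rule. Members were nevertheless chosen with earlier results of these data known. Of the 50 genes, 32 averaged at least 1 FPKM (fragments per kilobase of transcript, scaled to the size of the library) over the 9 libraries and were tested. The other 18 were not, and 3 of those, Abca15, Abca16 and Abcb5, had a count of 0 in every library. A count of 0 with a floor of 3 fragments, about 12 deposited counts, allows up to 0.231 CPM (counts scaled to the library total) in the shallowest library and 0.0214 over all 9, counting error only.

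Poly(A) RNA of colonic tissue from wild-type (WT) mice was sequenced in 9 libraries, 3 per group. Berberine, an isoquinoline alkaloid of plants, is studied in this series for its effect on tumours. The berberine libraries carry only that treatment in their labels, so their diet and any chemical exposure are not given. The titles of the high-fat diet and the chow libraries add AOM/DSS, which is commonly short for azoxymethane with dextran sulfate sodium, used together to cause colitis and colon tumours. Age, dose and duration are not given in the sources used here, nor whether the 9 libraries are 9 animals, so the p-values measure the spread between libraries, which may be partly technical. Each library held between 51961764 and 69007117 estimated counts, at about 4 counts per fragment.

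ABC proteins bind and hydrolyse ATP through a conserved cassette. Most of them use that energy to move lipids, drugs, conjugates, peptides or metals across a membrane. Subfamily A moves mainly lipids, B holds the multidrug pump P-glycoprotein and several mitochondrial and lysosomal carriers, and C holds the multidrug resistance-associated proteins and the sulfonylurea receptors. Subfamily D serves peroxisomes and lysosomes, and G moves sterols and drugs. The proteins of E and F have no membrane span and act on ribosomes and translation. In the gut, apical pumps of the epithelium return drugs, plant compounds and sterols to the lumen, and basolateral pumps pass conjugates and bile salts to the blood.

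Promoter windows from RefSeq (build GRCm38.p6, 250 bases before the start of transcription to 50 after) were found for 38 of the 50 genes, 45 windows in all. Windows are printed for Abcb1a and Abcc2, which had the lowest and the highest fitted change between high-fat diet and chow among the 32 tested ABC genes, and for Abcg5 and Abcg8, 2 genes that encode the subunits of 1 sterol pump and are read outward from a shared stretch. Capitals mark AGTTCA or AGGTCA, binding units of nuclear receptors, and, in Abcg5 and Abcg8, TTTATNG of Cdx factors overlapping the TATA box motif TATAAA, each searched on both strands.
Abcb1a, chr5:8566841-8567140, plus strand: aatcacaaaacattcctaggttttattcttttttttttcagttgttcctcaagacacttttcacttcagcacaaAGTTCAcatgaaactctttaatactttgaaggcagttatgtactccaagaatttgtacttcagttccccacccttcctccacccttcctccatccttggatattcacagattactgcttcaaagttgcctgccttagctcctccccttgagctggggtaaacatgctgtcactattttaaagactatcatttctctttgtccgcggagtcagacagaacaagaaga
Abcc2, chr19:43782058-43782357, plus strand: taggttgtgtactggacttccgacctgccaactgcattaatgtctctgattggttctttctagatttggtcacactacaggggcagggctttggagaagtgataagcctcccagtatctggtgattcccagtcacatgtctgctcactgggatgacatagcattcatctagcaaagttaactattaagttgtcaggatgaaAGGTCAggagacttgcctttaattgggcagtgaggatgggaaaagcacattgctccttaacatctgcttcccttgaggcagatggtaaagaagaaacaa
Abcg5, chr17:84682962-84683261, minus strand: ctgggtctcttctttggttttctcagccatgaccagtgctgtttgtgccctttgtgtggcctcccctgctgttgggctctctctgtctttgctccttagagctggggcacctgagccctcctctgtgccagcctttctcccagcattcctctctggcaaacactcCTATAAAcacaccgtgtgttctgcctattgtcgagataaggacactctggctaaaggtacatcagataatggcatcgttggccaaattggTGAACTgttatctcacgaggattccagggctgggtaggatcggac
Abcg8, chr17:84682871-84683170, plus strand: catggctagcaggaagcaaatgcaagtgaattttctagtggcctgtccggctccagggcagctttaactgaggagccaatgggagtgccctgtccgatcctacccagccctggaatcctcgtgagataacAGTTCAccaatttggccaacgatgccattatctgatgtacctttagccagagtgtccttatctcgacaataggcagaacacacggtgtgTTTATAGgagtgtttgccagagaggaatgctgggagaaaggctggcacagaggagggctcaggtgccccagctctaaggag
The Abcb1a window lies at a RefSeq start 92986 bases upstream of the gene start in the table, so it may not cover the start used in this tissue. The Abcg8 window lies 6819 bases from the gene start in the table, where RefSeq lists another Abcg8 start. The Abcg5 and Abcg8 starts lie 110 bases apart on opposite strands, and their windows share 209 bases. The capitals in these windows lie in the shared stretch and are the same bases, read from opposite strands. AGTTCA stood in 14.0% of all 32851 promoter windows, AGGTCA in 16.3%, TTTATNG in 10.9% and TATAAA in 13.6%. Among the members' windows these motifs stood in 12, 7, 6 and 7 of 45, with sites shared by Abcg5 and Abcg8 counted in both windows. The pregnane X receptor and vitamin D receptor are known to act through such units when paired. Neither AGGTCA nor AGTTCA occurred as a direct repeat with 4 bases between in a member's window, against 0.0152% and 0.0122% of all windows. These repeats stood in only 5 and 4 of 32851 windows, so their absence from 45 cannot tell about sites of these receptors. Repeats with other spacing were not searched. GCGTG, the core of the Ahr site, stood in 16 of the 45 windows and 32.4% of all windows, and ATCAAAG, a Tcf/Lef site, in 0 of 45 and 3.73%. A match is a run of letters and not a measured binding site.

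Levels are given as scaled FPKM, the deposited FPKM after a correction of each library by its TMM factor, which makes genes of different length and libraries comparable. A gene is said to have risen or fallen when edgeR's quasi-likelihood test gave a Benjamini-Hochberg adjusted p under 0.05 over all 14506 tested genes. Log2 fold changes are given ± SE, means ± SD, with 3 libraries per group.

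The summed level of all ABC genes was 268, 272 and 276 scaled FPKM in the berberine libraries, 220, 251 and 232 in the high-fat diet libraries and 338, 468 and 271 in the chow libraries. Much of that spread came from 1 gene, Abcb1a. It held 13.1% to 15.9% of the summed level with berberine, 0.974% to 2.31% with high-fat diet and 21.3% to 37.7% with chow. Without Abcb1a the sums were 232, 232 and 232 with berberine, 215, 247 and 230 with high-fat diet and 250, 291 and 214 with chow, and the 3 groups overlapped. In bulk tissue, fewer cells of a type and less RNA per cell cannot be told apart.

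**Figure D1:**
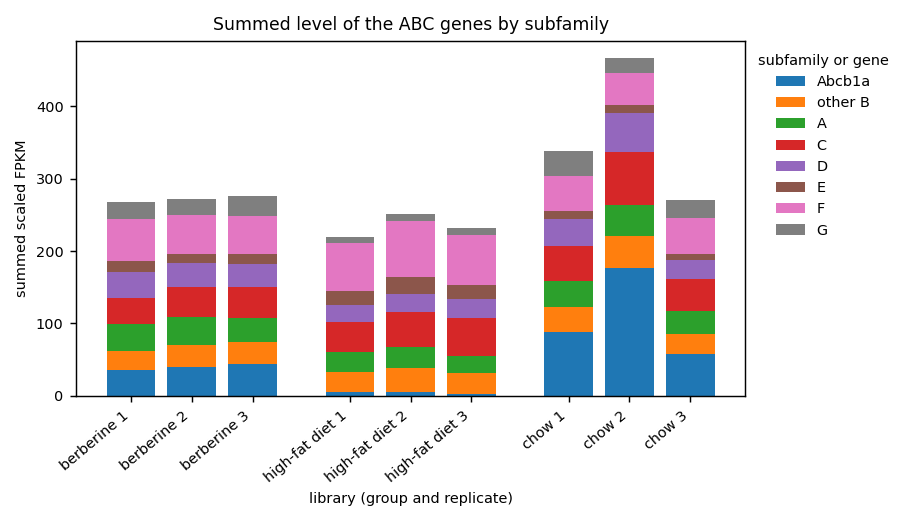
Stacked bars give the summed scaled FPKM of the ABC genes in each library (berberine, high-fat diet, chow), by subfamily, with Abcb1a apart from the other B genes. The Abcb1a segment is 35.2 to 43.8 in berberine, 2.26 to 5.08 in high-fat diet and 57.7 to 176 in chow.

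The order of the genes differed between groups. In berberine libraries the highest mean levels were those of Abcb1a (39.6 ± 4.32 scaled FPKM), Abcf1 (23.5 ± 0.883) and Abcc3 (21.6 ± 3.33). In high-fat diet libraries Abcf2 (31.8 ± 3.17), Abcf1 (27.2 ± 2.58) and Abce1 (20.9 ± 2.19) led, and Abcc4 came next with 19.1 ± 4.53. In chow libraries Abcb1a (107 ± 61.7), Abcc3 (32.9 ± 16.3) and Abcd3 (28.4 ± 14.0) led, and the last 2 do not differ beyond their spread. Abcb1a ranked first among the members in every berberine and chow library and at places 14, 16 and 23 with high-fat diet.

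**Figure D2:**
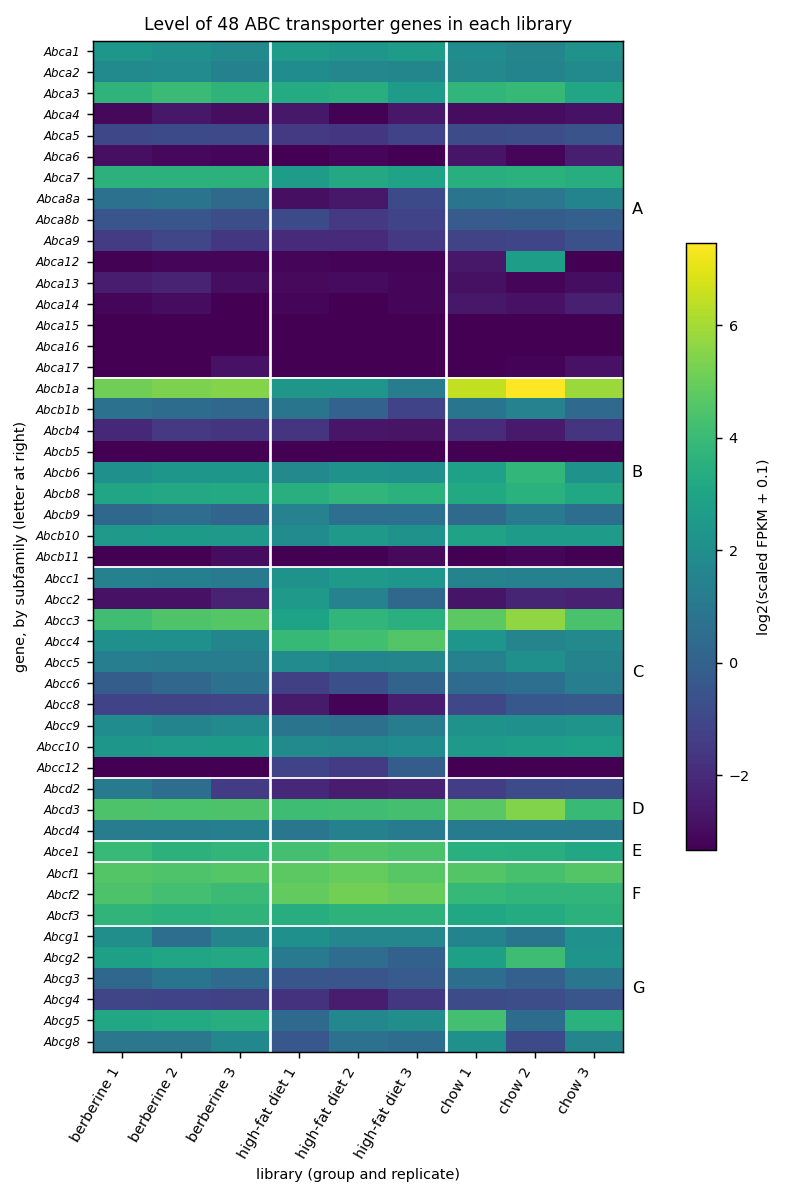
Colour gives log2(scaled FPKM + 0.1) of 48 ABC genes (rows, by subfamily A to G) in each library (columns, berberine, high-fat diet, chow). Abcb1a, Abcg2 and Abca8a are darker in the 3 high-fat diet columns, and Abcc2, Abcc4 and Abcc12 are brighter there.

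Between high-fat diet and chow, 18 of the 32 tested ABC genes differed, or 56.25%, where 31.8% of all tested genes did. Of these, 6 rose with high-fat diet (Abca1, Abcc1, Abcc2, Abcc4, Abce1 and Abcf2) and 12 fell (among them Abca7, Abca8a, Abcb1a, Abcb6, Abcb10, Abcc3, Abcc6, Abcc9, Abcc10, Abcg2 and Abcg3). Among all tested genes 15.2% rose and 16.6% fell. The median log2 fold change was -0.49 over the 32 genes and 0.0015 over all tested genes, and 11 of the 18 differed by at least 2-fold. The libraries of the 2 groups did not overlap in 18 of the 32 genes, against 45.7% of all tested genes. Scaling by library totals alone moved the median of all genes to 0.13 and gave 7 ABC genes higher and 9 lower (32.4% of all genes called), while the share of all called genes that were higher was 59.8%, against 47.7% with TMM.

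Between berberine and high-fat diet, 14 of the 32 differed, or 43.75%, against 30.7% of all tested genes. With berberine, 8 were higher than in high-fat diet (among them Abca7, Abca8a, Abcb1a, Abcc9, Abcc10, Abcg2 and Abcg3) and 6 were lower (Abcb8, Abcc1, Abcc2, Abcc4, Abce1 and Abcf2). Among all tested genes 15.8% were higher and 14.9% lower. The libraries did not overlap in 23 of the 32 genes, against 50.3% of all tested genes. The median log2 fold change was 0.25 over the 32 genes and -0.0069 over all tested genes. Without TMM the overall median was -0.12, 7 ABC genes were higher and 7 lower (31.4% of all genes called), and 40.9% of all called genes were higher, against 51.4% with TMM. The 2 comparisons share the high-fat diet libraries, so opposite directions in them are not independent.

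Between berberine and chow, 0 of the 32 differed by edgeR, where 7 of all 14506 genes did (0.0483%; 0.0414% higher and 0.00689% lower). The libraries did not overlap in 9 of the 32, against 18.2% of all tested genes. By unadjusted p, 6 of the 32 were under 0.05 in edgeR (Abcb1a, Abcb6, Abcc5, Abcc9, Abce1 and Abcf2). DESeq2 called 1 of the 32, Abcb1a (adjusted p = 0.0299), with 2.65% of all genes called, and limma on log2(FPKM + 1) called 0, with 4 under an unadjusted 0.05. The median log2 fold change of the 32 genes was -0.14, from -1.44 for Abcb1a to 0.43 for Abcf2.

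**Figure D3:**
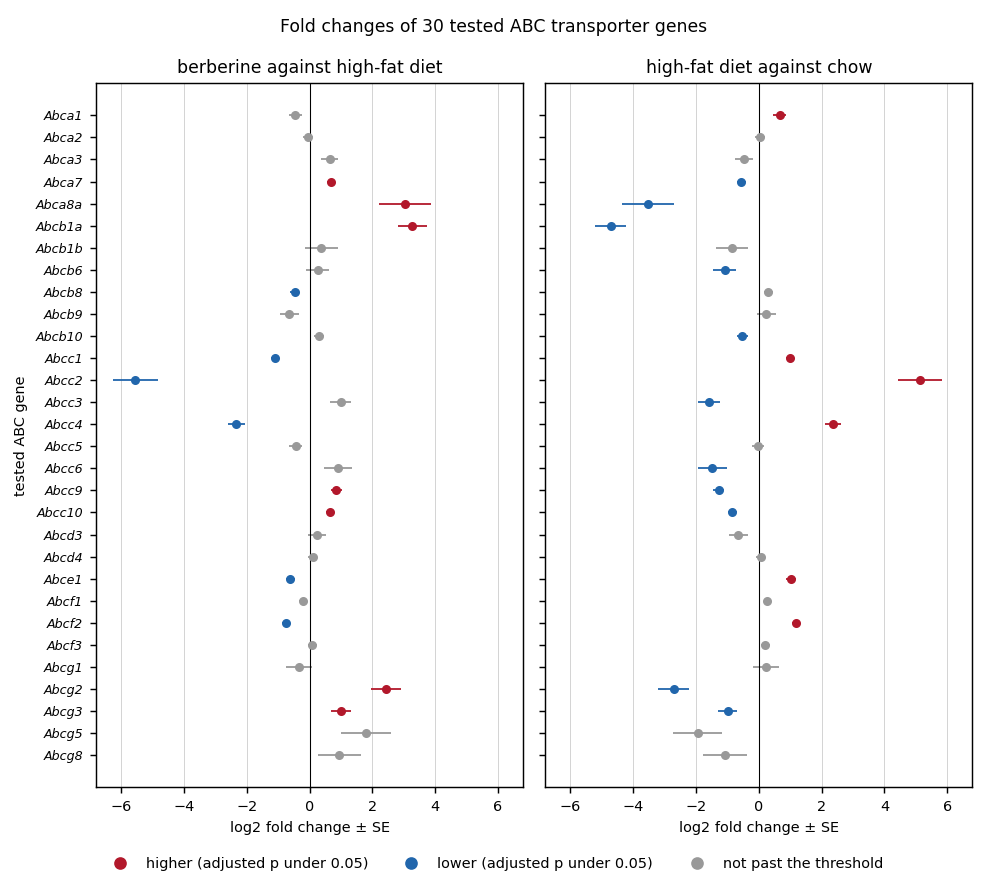
Points give the log2 fold change and bars its SE for 30 tested ABC genes, berberine against high-fat diet on the left and high-fat diet against chow on the right; red is higher and blue lower at an adjusted p under 0.05. Abcb1a, Abca8a and Abcg2 lie far to the right on the left panel and Abcc2 and Abcc4 far to the left, with the opposite placing on the right panel, and the panels share the high-fat diet libraries.

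In subfamily A, 5 of 16 genes were tested: Abca7 and Abca8a fell and Abca1 rose with high-fat diet against chow. Abca7, a phospholipid exporter, had 12.1, 12.2 and 12.3 scaled FPKM in berberine, 6.2, 8.97 and 7.43 in high-fat diet and 11.2, 11.6 and 10.6 in chow. No high-fat diet library reached the lowest of the other groups. The log2 fold change was 0.68 ± 0.14 for berberine against high-fat diet (adjusted p = 0.00655) and -0.56 ± 0.14 for high-fat diet against chow (0.0149). The second call was lost with limma on log2(FPKM + 0.1) and without chow replicates 2 and 3 (adjusted p up to 0.107). Abca1, which loads cholesterol onto apolipoprotein A-I, had 5.17, 4.14 and 3.44 scaled FPKM in berberine, 6.19, 5.20 and 6.05 in high-fat diet and 3.70, 2.86 and 4.45 in chow. It rose by 0.67 ± 0.20 with high-fat diet against chow (adjusted p = 0.0372), a call lost under 7 of 19 alternatives (adjusted p 0.013 to 0.128). Berberine libraries lay below the high-fat diet libraries, with a difference of -0.46 ± 0.20 that did not pass (adjusted p = 0.121).

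Abca8a is a low gene whose change was large. It had 1.59, 1.69 and 1.22 scaled FPKM in berberine, 0.0373, 0.0618 and 0.443 in high-fat diet and 1.69, 1.82 and 2.80 in chow. All 3 high-fat diet libraries were lowest, and replicate 3 stood above replicates 1 and 2. Its log2 fold change was 3.04 ± 0.82 for berberine against high-fat diet (adjusted p = 0.0232) and -3.53 ± 0.83 for high-fat diet against chow (0.0132). Leaving out high-fat diet replicate 3 moved these to 4.87 and -5.36. The first call was lost without berberine replicate 1, berberine replicate 2 or high-fat diet replicate 2 (adjusted p up to 0.0613), and DESeq2 gave no adjusted p for either. Smooth muscle markers summed to 528, 816 and 2486 scaled FPKM in high-fat diet, and markers of enteric neurons and glia to 7.87, 6.97 and 17. Within that group replicate 3 was also highest for both. Smooth muscle markers summed to 1492 to 1670 in berberine, below high-fat diet replicate 3, and to 3059 to 4088 in chow. Markers of enteric neurons and glia summed to 18.6 to 24.8 in berberine and 27.6 to 34.3 in chow. The part of these cells in the Abca8a values was not tested.

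Abca8a lies in a run of 5 subfamily A genes on mouse chromosome 11, from Abca8b at 109932190 to the end of Abca5 at 110337678. The other 4 were below the level for testing. Abca5 had 0.412 to 0.434 scaled FPKM in berberine, 0.228 to 0.352 in high-fat diet and 0.467 to 0.587 in chow, and Abca9 had 0.240 to 0.393 in berberine, 0.142 to 0.257 in high-fat diet and 0.360 to 0.535 in chow. Abca8b had 0.504 to 0.638 in berberine, 0.247 to 0.435 in high-fat diet and 0.760 to 0.895 in chow. For these 3 genes the high-fat diet and chow libraries did not overlap. The share among tested genes was 45.7%, and none was worked out for genes below the level for testing. Abca6 had counts of 12, 8 and 4 in berberine, 0, 4 and 0 in high-fat diet and 21, 4 and 38 in chow, too few to compare.

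Abca3, a phospholipid carrier known from lung surfactant, had the highest mean of the subfamily. It had 12.9, 16.3 and 12.7 scaled FPKM in berberine, 9.79, 10.8 and 5.89 in high-fat diet and 13.6, 15.0 and 8.31 in chow. High-fat diet and chow overlapped, and neither comparison passed (adjusted p = 0.104 for berberine against high-fat diet and 0.223 for high-fat diet against chow). Abca2, a lysosomal lipid carrier, stayed between 2.58 and 3.69 in all 9 libraries. The other untested A genes, Abca4, Abca13, Abca14 and Abca17, lay at or below 0.104 scaled FPKM in every library, apart from Abca12, described below.

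Of the 18 genes below the level for testing, 15 had counts and entered a fit without a filter. That fit called 1 of them higher (Abcc12) and 4 lower (Abca8b, Abca12, Abcc8 and Abcg4) for high-fat diet against chow, where 13.1% of 34440 genes were called. It called 2 higher (Abcc8 and Abcd2) and 1 lower (Abcc12) for berberine against high-fat diet, where 12.2% were called, and 0 for berberine against chow, where 5 genes or 0.0145% were. Such shares cover all 34440 fitted genes, with the 14506 tested genes among them. No share was worked out for genes below the level for testing alone.

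In subfamily B, 7 of 10 genes were tested, and Abcb1a stood apart from the rest. It encodes P-glycoprotein, the apical efflux pump of the intestine for drugs and plant compounds, and lies at chr5:8660077-8748575 on the plus strand in the table's annotation. Abcb1a had 35.2, 39.9 and 43.8 scaled FPKM in berberine, 5.08, 4.84 and 2.26 in high-fat diet and 88.2, 176 and 57.7 in chow. The 3 groups did not overlap, and chow replicate 2 was highest. Against high-fat diet, berberine libraries were 9.68-fold higher (log2 3.27 ± 0.45, adjusted p = 0.00134). High-fat diet libraries were 26.2-fold lower than chow (log2 -4.71 ± 0.48, adjusted p = 0.000392). Berberine libraries were 2.71-fold lower than chow (log2 -1.44 ± 0.42), which did not pass (adjusted p = 0.338; 0.0299 to 0.706 over the alternatives, with only DESeq2 under 0.05). Without chow replicate 2 that difference was -0.89, and high-fat diet against chow was -4.16.

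Abcb1b, the other P-glycoprotein gene of rodents, did not show this size of difference. It had 1.56, 1.3 and 1.13 scaled FPKM in berberine, 1.75, 0.951 and 0.346 in high-fat diet and 1.70, 2.64 and 1.19 in chow, and the groups overlapped. Its log2 fold change was 0.37 ± 0.52 for berberine against high-fat diet (adjusted p = 0.612) and -0.85 ± 0.52 for high-fat diet against chow (0.249). The ratio of Abcb1a to Abcb1b was 22.6 to 38.8 in berberine, 2.91 to 6.53 in high-fat diet and 48.5 to 66.9 in chow, with no overlap between groups. The 2 transcripts share 488 stretches of 100 bases, 9.03% of those in Abcb1a and 6.04% of those in Abcb1b, so a part of their reads could be assigned to either. Abcb4, the phosphatidylcholine exporter of bile, lies beside them on chromosome 5 and stayed at or below 0.244 scaled FPKM.

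The mitochondrial genes of subfamily B changed by less. Abcb8, a carrier of the inner mitochondrial membrane, had 8.02, 9.03 and 9.46 scaled FPKM in berberine, 11.1, 13.8 and 11.7 in high-fat diet and 9.33, 11.7 and 8.77 in chow. It was lower with berberine than with high-fat diet by log2 -0.47 ± 0.14 (adjusted p = 0.0364), and the call was lost without any 1 library of these 2 groups (adjusted p up to 0.115). Abcb10, linked to haem synthesis, had 5.61, 5.74 and 5.40 in berberine, 3.55, 5.5 and 4.50 in high-fat diet and 7.26, 6.16 and 6.06 in chow. Abcb6, linked to porphyrin transport, had 4.15, 5.15 and 5.07 in berberine, 3.23, 4.53 and 4.20 in high-fat diet and 7.03, 14.1 and 4.46 in chow, so high-fat diet and chow overlapped. Both fell with high-fat diet against chow at the edge of the threshold, Abcb10 by 0.52 ± 0.17 (adjusted p = 0.0466) and Abcb6 by 1.09 ± 0.36 (adjusted p = 0.0495). Each call was lost under 16 of 19 alternatives, and without chow replicate 2 Abcb6 fell by 0.53 only (adjusted p = 0.132). A predicted gene, Gm29253, shares 55.2% of the exon bases of Abcb6 on the same strand, so reads may be divided between them. Abcb9, a lysosomal peptide carrier, had 1.05 to 2.63 scaled FPKM over all libraries, with no call. Abcb11, the bile salt export pump of liver, stayed at or below 0.0299.

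**Figure D4:**
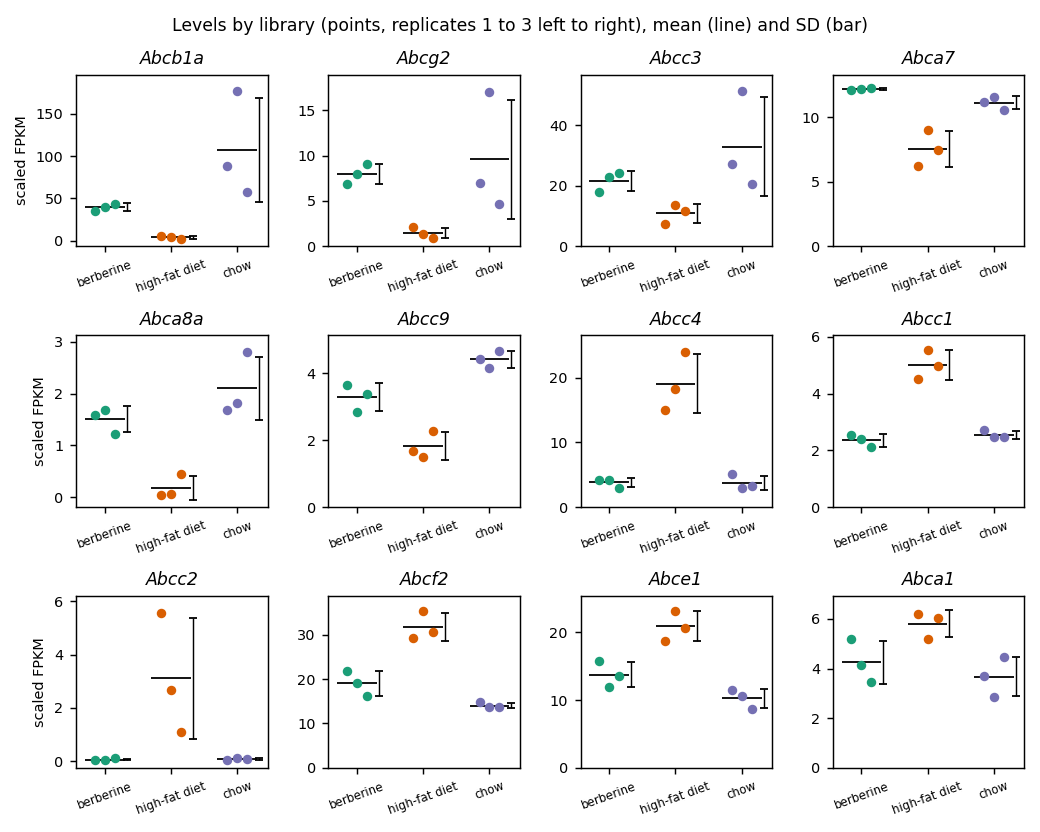
Points give scaled FPKM of 12 ABC genes in each library (berberine, high-fat diet, chow), lines the mean and bars the SD over 3 libraries, each panel with its own axis. In the first 6 panels the high-fat diet points lie below the other groups, and in the last 6 they lie above both.

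In subfamily C, 8 of 10 genes were tested and 7 differed between high-fat diet and chow, 3 of them higher and 4 lower, where 15.2% of all tested genes were higher and 16.6% lower. The 3 that rose export conjugates or signalling molecules. Abcc4, the pump for cyclic nucleotides and prostaglandins (chr14:118482692-118706219), had 4.16, 4.22 and 3.01 scaled FPKM in berberine, 15.0, 18.2 and 23.9 in high-fat diet and 5.02, 2.89 and 3.24 in chow. Every high-fat diet library was at least 15.0, while berberine and chow overlapped. The log2 fold change was -2.34 ± 0.27 for berberine against high-fat diet (adjusted p = 0.000586), 2.36 ± 0.27 for high-fat diet against chow (0.000564) and 0.02 ± 0.26 for berberine against chow (0.981).

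Abcc1, a pump for glutathione conjugates and leukotriene C4, had 2.54, 2.40 and 2.11 scaled FPKM in berberine, 4.50, 5.54 and 4.98 in high-fat diet and 2.70, 2.46 and 2.46 in chow. It fell by 1.10 ± 0.12 on the log2 scale with berberine against high-fat diet (adjusted p = 0.000569) and rose by 0.98 ± 0.12 with high-fat diet against chow (0.000866). Abcc2, the apical exporter of glucuronide and glutathione conjugates (chr19:43782192-43840740), was near 0 outside the high-fat diet group. It had 0.0445, 0.0449 and 0.108 scaled FPKM in berberine, 5.57, 2.67 and 1.11 in high-fat diet and 0.0530, 0.114 and 0.0972 in chow. It changed by log2 -5.55 ± 0.71 for berberine against high-fat diet (adjusted p = 0.000986) and 5.13 ± 0.70 for high-fat diet against chow (0.00121). Leaving out high-fat diet replicate 1 moved these to -4.80 and 4.39. Abcc2 passed the filter on low levels only through the high-fat diet libraries, so it was tested because it was high there, and its calls also held without a filter. Abca8a, Abcc6 and Abcg3, at 0.181, 0.602 and 0.676 scaled FPKM on average in high-fat diet, passed it only through the other groups. The counts of members called above include all 4 and describe the tested members only.

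Between groups, most mast cell markers moved in the same direction as Abcc1, Abcc2 and Abcc4. Their summed level was 19.9, 22.1 and 18.7 scaled FPKM in berberine, 3608, 854 and 198 in high-fat diet and 12.4, 14.6 and 12.3 in chow, 6 of 7 tested markers rose with high-fat diet against chow, and 5 fell with berberine against high-fat diet. Kit, which other cells of the gut wall also express, was called the other way in both comparisons, by log2 1.10 ± 0.32 for berberine against high-fat diet (adjusted p = 0.0308) and -1.49 ± 0.32 for high-fat diet against chow (0.0092). Fcer1a and Tpsab1 had no counts in the chow libraries. Within high-fat diet, replicate 1 was highest and replicate 3 lowest for both the mast cell sum and Abcc2. For Abcc4 replicate 3 was highest, and replicate 1 was lowest for both Abcc1 and Abcc4. The part of mast cells in the levels of Abcc1, Abcc2 and Abcc4 was not tested.

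Abcc3, a basolateral exporter of conjugates and bile salts, was the C gene with the highest mean. It had 17.9, 22.7 and 24.3 scaled FPKM in berberine, 7.48, 13.5 and 11.5 in high-fat diet and 27.0, 51.4 and 20.4 in chow. The high-fat diet libraries were the 3 lowest. Abcc3 fell by 1.59 ± 0.35 with high-fat diet against chow (adjusted p = 0.00944) and the difference of 0.99 ± 0.34 for berberine against high-fat diet did not pass (adjusted p = 0.0576). Without chow replicate 2 the fall was 1.13 and the second difference passed at an adjusted p of 0.0156.

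Abcc9, the sulfonylurea receptor of smooth muscle and pericytes, had 3.65, 2.84 and 3.38 scaled FPKM in berberine, 1.66, 1.5 and 2.28 in high-fat diet and 4.44, 4.16 and 4.67 in chow. The 3 groups did not overlap. It was higher with berberine than with high-fat diet by 0.85 ± 0.18 (adjusted p = 0.00891) and fell by 1.28 ± 0.18 with high-fat diet against chow (0.00153). Kcnj8, the channel subunit it pairs with, had 5.5 to 10.9 in berberine, 4.22 to 6.33 in high-fat diet and 7.85 to 8.34 in chow, with no call. Smooth muscle markers summed to 1492 to 1670 in berberine, 528 to 2486 in high-fat diet and 3059 to 4088 in chow, and pericyte markers to 29.7 to 33.8 in berberine, 17.4 to 23.6 in high-fat diet and 36.1 to 82.5 in chow. With high-fat diet against chow 4 of 9 smooth muscle and 2 of 4 tested pericyte markers fell, and 0 of either rose with berberine against high-fat diet. Their part in the Abcc9 level was not tested.

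Abcc10, an exporter of lipophilic compounds, had 5.13, 5.51 and 5.85 scaled FPKM in berberine, 3.48, 3.13 and 3.72 in high-fat diet and 5.37, 6.54 and 6.64 in chow. It was higher with berberine than with high-fat diet by 0.66 ± 0.13 (adjusted p = 0.00632) and fell by 0.84 ± 0.13 with high-fat diet against chow (0.0023). Abcc6, needed for the release of ATP from liver, had 0.819 to 1.51 in berberine, 0.310 to 0.979 in high-fat diet and 1.25 to 2.37 in chow. It fell by 1.48 ± 0.46 with high-fat diet against chow (adjusted p = 0.0373), a call lost under 8 of 19 alternatives (adjusted p 0.00509 to 0.288). Abcc5, a cyclic nucleotide exporter, had 2.21 to 2.35 in berberine, 2.80 to 3.53 in high-fat diet and 2.52 to 4.19 in chow, with no call.

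In subfamily D, Abcd3, a carrier of the peroxisomal membrane and the D gene with the highest mean, had 21.6, 21.0 and 21.7 scaled FPKM in berberine, 17, 17.6 and 19.4 in high-fat diet and 26.3, 43.3 and 15.6 in chow. The chow libraries spanned the other groups, and neither comparison passed (adjusted p = 0.568 for berberine against high-fat diet and 0.129 for high-fat diet against chow). Without chow replicate 3, Abcd3 was lower with high-fat diet than with chow by a log2 fold change of -0.93 (edgeR adjusted p = 0.0106). Leaving out 1 library in turn gave -0.93 to -0.22 (adjusted p 0.0106 to 0.461), and of these fits only that one passed. Abcd4, a lysosomal cobalamin carrier, stayed between 1.80 and 2.56.

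Subfamilies E and F hold 4 genes of translation, and all were tested. Abce1, which splits ribosomes for a new round of translation, had 15.7, 12.0 and 13.5 scaled FPKM in berberine, 18.8, 23.2 and 20.7 in high-fat diet and 11.4, 10.7 and 8.67 in chow. The 3 groups did not overlap. It was lower with berberine than with high-fat diet by log2 -0.61 ± 0.15 (adjusted p = 0.0157) and rose by 1.03 ± 0.15 with high-fat diet against chow (0.0017). The first call was lost without berberine replicate 2 (-0.52, adjusted p = 0.0611) or high-fat diet replicate 2 (-0.53, adjusted p = 0.0527).

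Abcf2 had 21.8, 19.1 and 16.2 scaled FPKM in berberine, 29.3, 35.4 and 30.6 in high-fat diet and 14.7, 13.7 and 13.7 in chow. The groups did not overlap here either. The log2 fold change was -0.75 ± 0.14 for berberine against high-fat diet (adjusted p = 0.00439) and 1.18 ± 0.14 for high-fat diet against chow (0.000617), and 0.43 ± 0.14 for berberine against chow, which did not pass (0.346). Abcf1, a factor of translation initiation and the F gene with the highest mean, had 23.8, 22.5 and 24.2 in berberine, 26.7, 30.0 and 24.9 in high-fat diet and 23.9, 19.9 and 24.1 in chow. Its log2 fold change was -0.22 ± 0.12 for berberine against high-fat diet (adjusted p = 0.189) and 0.27 ± 0.12 for high-fat diet against chow (0.114). Abcf3 had 8.80 to 13.4 over all libraries, with no call.

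In subfamily G, Abcg2, the breast cancer resistance protein, is an apical pump for drugs, urate and plant compounds (chr6:58584523-58695676). It had 6.84, 7.92 and 9.04 scaled FPKM in berberine, 2.07, 1.36 and 0.918 in high-fat diet and 6.99, 17.1 and 4.66 in chow. The high-fat diet libraries were the 3 lowest, and berberine lay inside the chow range. Abcg2 was 5.42-fold higher with berberine than with high-fat diet (log2 2.44 ± 0.48, adjusted p = 0.00639) and 6.53-fold lower with high-fat diet than with chow (log2 -2.71 ± 0.49, adjusted p = 0.00417). Without chow replicate 2 the second value was -2.0. Abcg3, a rodent relative of Abcg2, had 1.12, 1.71 and 1.25 in berberine, 0.638, 0.624 and 0.765 in high-fat diet and 1.39, 0.879 and 1.78 in chow. Its log2 fold changes of 1.0 ± 0.31 for berberine against high-fat diet (adjusted p = 0.0417) and -0.99 ± 0.31 for high-fat diet against chow (0.0414) were lost under 12 and 16 of 19 alternatives (adjusted p up to 0.142 and 0.114).

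Abcg5 and Abcg8 encode the paired subunits of the pump that returns plant sterols and cholesterol to the gut lumen, from the shared stretch of chromosome 17 printed above. Abcg5 had 8.66, 9.52 and 10.5 scaled FPKM in berberine, 1.18, 3.11 and 3.89 in high-fat diet and 18.6, 1.31 and 11.6 in chow. Abcg8 had 1.86, 1.85 and 3.18 in berberine, 0.664, 1.54 and 1.37 in high-fat diet and 4.20, 0.438 and 2.90 in chow. For both genes the berberine libraries lay above every high-fat diet library, and chow replicate 2 was far below the other chow libraries. Neither passed in any comparison with edgeR on all libraries. Abcg5 differed by 1.80 ± 0.78 for berberine against high-fat diet (adjusted p = 0.115) and by -1.94 ± 0.79 for high-fat diet against chow (0.0918). DESeq2 called both differences of Abcg5 (adjusted p = 0.0311 and 0.0179), and the edgeR fit on the 2 groups alone called the first (0.0182) and not the second (0.162). Without chow replicate 2 they became 1.80 (adjusted p = 0.0125) and -2.47 (0.0066), and Abcg8 became -1.58 for high-fat diet against chow (0.0275). The ratio of Abcg5 to Abcg8 was 3.29 to 5.13 in berberine, 1.78 to 2.84 in high-fat diet and 3.00 to 4.43 in chow, while the 2 genes overlap in 82 exon bases on opposite strands. Abcg1, a cholesterol exporter of macrophages, had 1.40 to 3.96 in berberine, 3.08 to 4.18 in high-fat diet and 1.71 to 4.34 in chow, with no call.

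Chow replicate 2 also stood apart for the summed posterior Hox genes. These 6 genes mark the hind end of the gut. They summed to 169 to 284 scaled FPKM in berberine, 170 to 268 in high-fat diet and 250, 60.3 and 305 in chow. Of the 6, only Hoxa13 was called, lower with high-fat diet than with chow and higher with berberine than with high-fat diet. Among the 6, Hoxd13 and Hoxd12 were also low in berberine replicate 3. Hoxd13 had 76.0, 98.1 and 10.2 in berberine and 62.2, 1.67 and 95.6 in chow. Hoxd12 had 2.36, 1.92 and 0.130 in berberine and 4.40, 0.0503 and 5.21 in chow. Position along the gut was not tested. Absorptive colonocyte markers summed to 2528, 6655 and 2245 in the chow libraries, so replicate 2 was the highest there, as it was for Abcb1a, Abcc3, Abcd3 and Abcg2. Chow replicate 3 was the library with striated muscle RNA, at 587 summed scaled FPKM against 4.47 to 21.3 in the other 8. Without both chow libraries, 5 ABC genes were higher and 7 lower with high-fat diet than with chow replicate 1, where 13.8% of all tested genes were called. The 5 were among the 6 called higher with all libraries (the call of Abca1 was lost). Of the 12 called lower, 5 were called again, Abca7, Abca8a, Abcb6, Abcb10, Abcc6, Abcc10 and Abcg3 were not, and Abcd3 and Abcg5 were added. For berberine against high-fat diet, 10 were then higher and 7 lower, where 31.4% of all tested genes were called, and these held all 8 and all 6 called with all libraries.

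**Figure D5:**
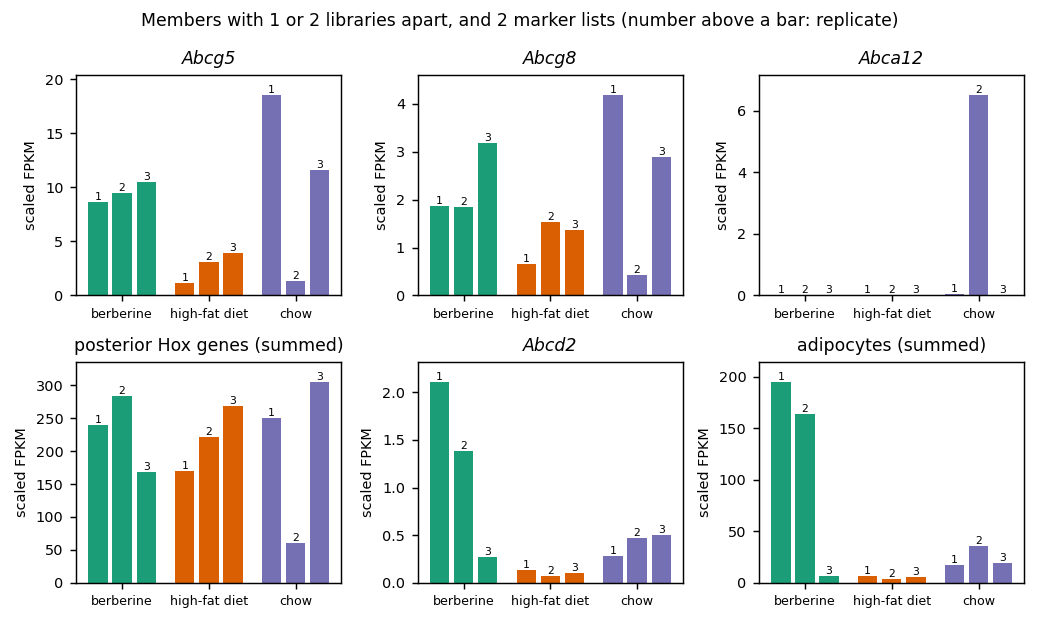
Bars give scaled FPKM of Abcg5, Abcg8, Abca12 and Abcd2 and summed scaled FPKM of the posterior Hox and adipocyte markers in each library (berberine, high-fat diet, chow; the replicate number stands above each bar), each panel with its own axis. Chow replicate 2 is low for Abcg5, Abcg8 and the Hox sum (60.3) and is alone high for Abca12 (6.52), and berberine replicates 1 and 2 are high for Abcd2 and the adipocyte sum.

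The lower apical pumps stood beside lower markers of mature absorptive cells. In absorptive colonocytes, 9 of 10 markers fell with high-fat diet against chow and 8 were higher with berberine than with high-fat diet. Their summed level was 1554 to 2592 scaled FPKM in berberine, 250 to 415 in high-fat diet and 2245 to 6655 in chow, with no marker at 0 throughout a group. Markers of epithelium in general summed to 4446 to 5263 in berberine, 3615 to 4791 in high-fat diet and 4771 to 5231 in chow, with 1 of 8 higher and 0 lower in high-fat diet against chow. Goblet cell markers fell in 6 of 8 and summed to 6349 to 10846 in berberine, 473 to 2152 in high-fat diet and 5612 to 8293 in chow. Lymphocyte markers fell in 7 of 7 tested and summed to 193 to 350 in berberine, 44.5 to 87.2 in high-fat diet and 124 to 197 in chow. The part of these cells in the levels of Abcb1a, Abcc3, Abcg2 and the other ABC genes was not tested.

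Regulators and partners of the pumps were counted from lists of genes that are no members. Of all tested genes, 31.8% were called between high-fat diet and chow and 30.7% between berberine and high-fat diet. Of 16 tested nuclear receptors and other regulators, 7 fell and 2 rose with high-fat diet against chow, with a median log2 fold change of -0.77, and 7 were higher and 1 lower with berberine than with high-fat diet. Vdr, the vitamin D receptor, had 45.0, 52.4 and 48.3 scaled FPKM in berberine, 6.18, 9.13 and 11.8 in high-fat diet and 50.7, 68.0 and 56.8 in chow. Nr1i2, the pregnane X receptor that turns on P-glycoprotein in the gut, had 29.4, 28.1 and 34.6 in berberine, 10.1, 12.4 and 14.7 in high-fat diet and 35.9, 35.2 and 35.0 in chow. For both genes the high-fat diet libraries lay below all others. Vdr changed by 2.42 ± 0.23 for berberine against high-fat diet (adjusted p = 0.000287) and by -2.69 ± 0.23 for high-fat diet against chow (0.000226), and Nr1i2 by 1.3 ± 0.15 (0.000635) for berberine against high-fat diet and -1.51 ± 0.15 (0.000378) for high-fat diet against chow.

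Of 16 tested enzymes that oxidise or conjugate the compounds these pumps export, 14 fell and 0 rose with high-fat diet against chow, and 11 were higher and 2 lower with berberine than with high-fat diet. Sult1b1, a sulfotransferase, had 51.5, 63.5 and 66.8 scaled FPKM in berberine, 16.4, 19.0 and 17 in high-fat diet and 63.4, 57.4 and 50.3 in chow. Sult1a1, another, had 102, 87.5 and 196 in berberine, 4.21, 4.67 and 6.62 in high-fat diet and 170, 278 and 121 in chow. In both sulfotransferases every high-fat diet library lay below all libraries of the other groups. Of 11 tested solute carriers of drugs and bile acids, 6 fell and 0 rose with high-fat diet against chow, and 4 were higher and 0 lower with berberine. Slc51b, a subunit of the basolateral bile acid exporter, fell by 3.39 ± 0.63 with high-fat diet against chow (adjusted p = 0.00472), Slco2a1, a prostaglandin carrier, was higher by 2.33 ± 0.41 with berberine against high-fat diet (adjusted p = 0.00401), and Slc15a1, a peptide carrier, by 2.86 ± 0.52 (adjusted p = 0.00433).

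Genes of cellular sterol handling had fewer calls than the lists above for high-fat diet against chow. Of 9 tested, 1 fell and 0 rose with high-fat diet against chow, and 2 were higher and 2 lower with berberine than with high-fat diet. Pltp, a phospholipid transfer protein, was higher with berberine than with high-fat diet (1.11 ± 0.25, adjusted p = 0.0111) and lower with high-fat diet than with chow (-0.88 ± 0.25, adjusted p = 0.027), and Soat1, which esterifies cholesterol, was lower with berberine than with high-fat diet (-0.52 ± 0.11, adjusted p = 0.00934). Of 8 tested partners of ABC proteins, 1 fell with high-fat diet against chow and 3 were higher with berberine. B2m, the light chain of MHC class I, was higher with berberine than with high-fat diet by 1.25 ± 0.18 (adjusted p = 0.00164) and fell by 1.23 ± 0.18 with high-fat diet against chow (0.0017), and Tapbpl, a peptide editor, by 0.87 ± 0.24 with berberine against high-fat diet (0.0244). No gene of these lists passed between berberine and chow.

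The 3 ABC genes whose symbols fall outside the rule were tested as well. Cftr, the chloride channel, had 6.46, 7.19 and 14.0 scaled FPKM in berberine, 2.18, 2.46 and 2.51 in high-fat diet and 15.2, 15.4 and 6.15 in chow. Tap2, a subunit of the peptide pump of antigen presentation, had 44.0, 30.0 and 25.3 in berberine, 13.8, 16.8 and 16.6 in high-fat diet and 26.8, 22.3 and 38.8 in chow. For both genes the high-fat diet libraries were the 3 lowest. Both passed in both comparisons, Cftr at 1.94 ± 0.39 for berberine against high-fat diet and -2.35 ± 0.40 for high-fat diet against chow, and Tap2 at 1.07 ± 0.26 for berberine against high-fat diet and -0.89 ± 0.26 for high-fat diet against chow. Tap1, its partner, had 24.4, 9.63 and 6.99 in berberine, 4.13, 5.31 and 5.23 in high-fat diet and 12.0, 4.91 and 12.3 in chow, with no call.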

How the data were processed

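RNA-seq of 9 libraries of mouse colonic tissue was analysed; libraries were stranded and carried molecular identifiers, per the labels' protocols. Per the file headers, the deposited table gives 1 column of estimated counts and 1 of FPKM per library. The build was GRCm38 and the tools were HISAT2 2.0.4, cutadapt 1.9, StringTie 1.3.4d, UMI-tools, edgeR and DESeq2, per the submitters' processing notes; which step each served, the filters and the strand setting of counting are not given in the sources used here. The deposited estimated counts are whole numbers, about 4 per fragment, and the deposited FPKM values are per library. Totals ran from 51961764 to 69007117.

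All 9 libraries were fitted together with edgeR 4.0.16 (TMM, quasi-likelihood, no block) in R 4.3.3, over the 14506 genes with a mean FPKM of at least 1 (98.85% of counts), Benjamini-Hochberg adjusted, threshold 0.05. DESeq2 1.42.0 and limma 3.58.1 served as alternatives, with other filters, scalings and left-out libraries. FPKM of each library was divided by a TMM-based factor, and 0 stands where the count is 0. On simulated data with 200 changed genes the fit was tested before use. Named members were, per subfamily, up to 5 called genes with the smallest adjusted p and the gene with the highest mean; Abcb1b, Abcg8, Abcc12, Abcd2, Abca12 and the run on chromosome 11 were chosen after their values were seen. Members and gene lists were chosen with earlier results of these data known. Floors cover counting error only, while SE and SD include the spread between libraries. Same-numbered libraries were not treated as pairs. Protein sequences were not used here. Of the 50 members, 2 are counted but not reported by name here.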

Additional observations from a re-analysis of the deposited data

How the results depend on the processing

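No call of an ABC gene reversed under any of 19 alternatives. Among others, calls of Abcb1a, Abcc1, Abcc2, Abcc4, Abcc9, Abcf2 and Abcg2 held in all 19 for high-fat diet against chow and for berberine against high-fat diet, as did Abcc3 and Abce1 for the first and Abca7 and Abcc10 for the second. Leaving out 1 library in turn gave 5 to 6 ABC genes higher and 8 to 11 lower for high-fat diet against chow, and 6 to 10 higher and 4 to 7 lower for berberine against high-fat diet. Without chow replicates 2 and 3 together, an alternative chosen after seeing the data, 7 ABC genes were lower and 2001 of all genes called for high-fat diet against chow, and 1 of all genes was called for berberine against chow. That leaves 1 chow library, whose spread is assumed equal to that of the other groups. Without berberine replicate 2, 2960 of all genes were called for berberine against high-fat diet, where leaving out 1 library gave 2960 to 4740. For berberine against chow, DESeq2 called 1 ABC gene lower and 384 of all genes; filterByExpr, counts divided by 4, limma on log2(FPKM + 0.1), the fit on 2 groups and the replicate block each called 2, and leaving out 1 library gave 1 to 7. With the replicate number as a block, 6 ABC genes were higher and 9 lower for high-fat diet against chow, and 10 higher and 6 lower for berberine against high-fat diet, with Abca3, Abcc3 and Abcc6 added to the higher calls and Abcg3 lost. Same-numbered libraries correlated by -0.0711 to 0.139 in their deviations from the group means, and differently numbered libraries of different groups by -0.193 to 0.169. With 3 libraries per group, these values cannot settle whether the numbers pair the libraries. The cause of these shifts was not tested. The 18 untested members lie below the mean FPKM filter, and 15 of them were fitted without it.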

Other observations

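Values of the ABC genes below the level for testing follow, from the fit without a filter, where 13.1% of all genes were called for high-fat diet against chow and 12.2% for berberine against high-fat diet. Those shares include the genes above the level for testing. The ABC genes named here were singled out after their values were seen. Abcc12, a subfamily C gene of unsettled function, had counts of 2, 0 and 0 in berberine, 194, 117 and 375 in high-fat diet and 0, 2 and 0 in chow. Its adjusted p was 0.00211 for berberine against high-fat diet and 0.00206 for high-fat diet against chow, and with so few counts outside high-fat diet no fold is given. It was the other C gene, beside Abcc2, that was near 0 outside the high-fat diet group.

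Abcc8, the sulfonylurea receptor of endocrine cells and neurons, had 0.352 to 0.380 scaled FPKM in berberine, 0.00843 to 0.0743 in high-fat diet and 0.398 to 0.696 in chow. It was higher with berberine than with high-fat diet (log2 2.80 ± 0.61, adjusted p = 0.0142) and lower with high-fat diet than with chow (-3.46 ± 0.62, adjusted p = 0.00559). Enteroendocrine markers summed to 495 to 593 in berberine, 160 to 352 in high-fat diet and 292 to 617 in chow, and 4 of 6 tested fell with high-fat diet against chow. Their part in the Abcc8 level was not tested. Abcg4, a brain sterol exporter, fell with high-fat diet against chow (-1.56 ± 0.42, adjusted p = 0.0346), as did Abca8b (-1.20 ± 0.28, adjusted p = 0.0195).

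Some values rested on 1 or 2 libraries. Abcd2, a carrier of fatty acids, had 2.11, 1.38 and 0.267 scaled FPKM in berberine, 0.130, 0.0755 and 0.0990 in high-fat diet and 0.285, 0.468 and 0.502 in chow, and adipocyte markers summed to 195, 163 and 6.62 in the same berberine libraries and to 3.51 to 35.8 in all others. It was called higher for berberine against high-fat diet (adjusted p = 0.00612), and the part of fat tissue in that was not tested. Abca12, a lipid carrier of skin, had 6.52 scaled FPKM in chow replicate 2 and at most 0.0630 in the other 8 libraries, so its call as lower with high-fat diet than with chow (adjusted p = 0.0455) rests on that library, the one with the lowest posterior Hox sum.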
